A study of Homo sapiens with 12 samples.

Results

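The BCL2 family decides whether the outer membrane of the mitochondrion stays closed or opens to release cytochrome c, the step that commits a cell to apoptosis. Its anti-apoptotic proteins, among them BCL2, BCL-xL (gene BCL2L1), MCL1 and BFL-1 (gene BCL2A1), hold their pro-apoptotic relatives in check. The BH3-only proteins, among them BIM (gene BCL2L11), PUMA (gene BBC3), NOXA (gene PMAIP1) and BID, bind those guardians or activate BAX and BAK (gene BAK1), which form the pore. In acute myeloid leukemia (AML) blasts lean on BCL2 and MCL1 for survival, and inhibitors of BCL2 are in clinical use.

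The 10 genes described here were chosen by name: BCL2, BCL2L1, MCL1, BCL2A1, BCL2L11, BBC3, PMAIP1, BID, BAX and BAK1. All 10 were found among the 14866 genes listed, and all 10 passed the filter on low values that 13502 genes passed. They were measured by RNA-seq in SHI-1, an established AML cell line that carries the MLL-AF6 fusion. Cells of this single line were kept for 16 h with DMSO, with 0.3 µM disulfiram and 1 µM copper (DSF), with 5 µM niclosamide (NSM) or with both drugs (DSF+NSM), in 3 libraries a group. The labels speak of independent experiments, and neither they nor the methods state whether the DMSO and NSM cultures also received copper.

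Each value below is a normalized count, that is, an estimated number of reads per gene divided by a factor for its library. The sums of these values were 14.0 to 14.4 M in DMSO, 14.9 to 15.3 M for DSF, 16.5 to 17.5 M for NSM and 22.7 to 25.6 M for DSF+NSM, and the estimated depth of a library was 10.2 to 19.0 M reads. About 63 to 405 reads stood behind a value of PMAIP1 and 104 to 1687 behind one of BBC3, against 2893 to 5026 for MCL1. NSM replicate 3 stood apart. Its Spearman correlation with NSM replicates 1 and 2 was 0.952 and 0.959 across genes, whereas every other pair within a group reached 0.981 to 0.996, so the NSM results are given with and without it. Of 8 myeloid markers all 8 were listed, and their summed value was 63572 to 72401 in DMSO, 41402 to 48104 in DSF, 23020 to 31784 in NSM and 29566 to 31672 in DSF+NSM libraries. Most of this sum was MPO, at 54162 to 62640 in DMSO and 19671 to 22044 in DSF+NSM libraries, whereas CD14 was 6.52-, 3.09- and 5.64-fold and ITGAM 2.82-, 1.41- and 1.53-fold its DMSO mean in DSF, NSM and DSF+NSM cells. Of 8 markers of lymphoid, erythroid, epithelial, stromal and endothelial cells 4 were listed. Their summed value was 93.8 to 101 in DMSO, 110 to 127 in DSF, 133 to 189 in NSM and 197 to 390 in DSF+NSM libraries, with MS4A1 at 0 in all 12. The part of these shifts in the results below was not tested, and in bulk RNA fewer cells of a type and less RNA per cell cannot be told apart.

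PMAIP1, BBC3, BCL2A1 and BCL2L11 were the members that rose in DSF+NSM cells, beside MCL1 (BCL2L11 not when libraries were scaled to equal sums), and the sequence upstream of their start sites is shown so that the transcripts below can be read against their promoters. The sequences are from RefSeq (GRCh38.p14), run 5′ to 3′ on the strand of the gene and end at the base before the start site. For BBC3 the stretch stops earlier, where an exon annotated in GENCODE 44 begins. The BBC3 start site used here lies within the gene, which extends to base 47232860 of chromosome 19. Part of the stretch printed for BBC3 therefore lies inside the gene. Capitals mark a match to one of 3 motifs.
PMAIP1, chr18:59899746-59899995, + strand: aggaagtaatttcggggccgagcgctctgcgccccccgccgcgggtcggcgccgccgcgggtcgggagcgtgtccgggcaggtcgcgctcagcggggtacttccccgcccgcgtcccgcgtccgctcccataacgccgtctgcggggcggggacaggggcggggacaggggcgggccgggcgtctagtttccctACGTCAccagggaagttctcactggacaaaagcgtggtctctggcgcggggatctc
BBC3, chr19:47232767-47232917, − strand: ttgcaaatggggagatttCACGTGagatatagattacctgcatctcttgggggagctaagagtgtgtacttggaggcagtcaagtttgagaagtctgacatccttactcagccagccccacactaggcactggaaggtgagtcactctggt
BCL2A1, chr15:79971197-79971446, − strand: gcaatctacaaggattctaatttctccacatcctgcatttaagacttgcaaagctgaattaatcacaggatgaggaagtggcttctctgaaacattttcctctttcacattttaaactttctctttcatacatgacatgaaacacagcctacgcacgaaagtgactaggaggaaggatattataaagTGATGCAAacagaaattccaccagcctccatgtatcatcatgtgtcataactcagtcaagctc
BCL2L11, chr2:111120664-111120913, + strand: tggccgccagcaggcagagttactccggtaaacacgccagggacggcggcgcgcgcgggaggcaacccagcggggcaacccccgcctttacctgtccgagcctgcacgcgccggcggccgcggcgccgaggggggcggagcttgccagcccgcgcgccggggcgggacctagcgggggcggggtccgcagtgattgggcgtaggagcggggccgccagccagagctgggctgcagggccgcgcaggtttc

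The motifs were searched on both strands after the sequences had been seen. The ATF/CREB core TGACGT, read as ACGTCA on the other strand, lay 56 to 51 bases before the start of PMAIP1 and was present in 7.09% of the 34943 RefSeq windows of 250 bases. The composite core TGATGNAA, where N is any base, lay 63 to 56 bases before the start of BCL2A1 and was present in 3.15% of windows. The E box CACGTG lay 232 to 227 bases before the BBC3 start site used here, which is inside the gene, and was present in 6.32% of windows. None of these letters occurred in the BCL2L11 window, whereas the E box also occurred at 4 places in the BAX window and in 2 of the 5 BID windows. These matches are letters in a window, with no measurement of binding behind them.

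PMAIP1 and BBC3 were the members with the largest fold changes against DMSO, and they followed the 4 groups in different ways. On the group means PMAIP1 was 1.63-fold its DMSO level with DSF, 2.49-fold with NSM and 9.90-fold with both. BBC3 rose with each drug alone, 4.03-fold with DSF and 12.2-fold with NSM, and stood at 11.6-fold with both. The plot of every library shows this contrast beside the other 8 genes.

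**Figure D1:**
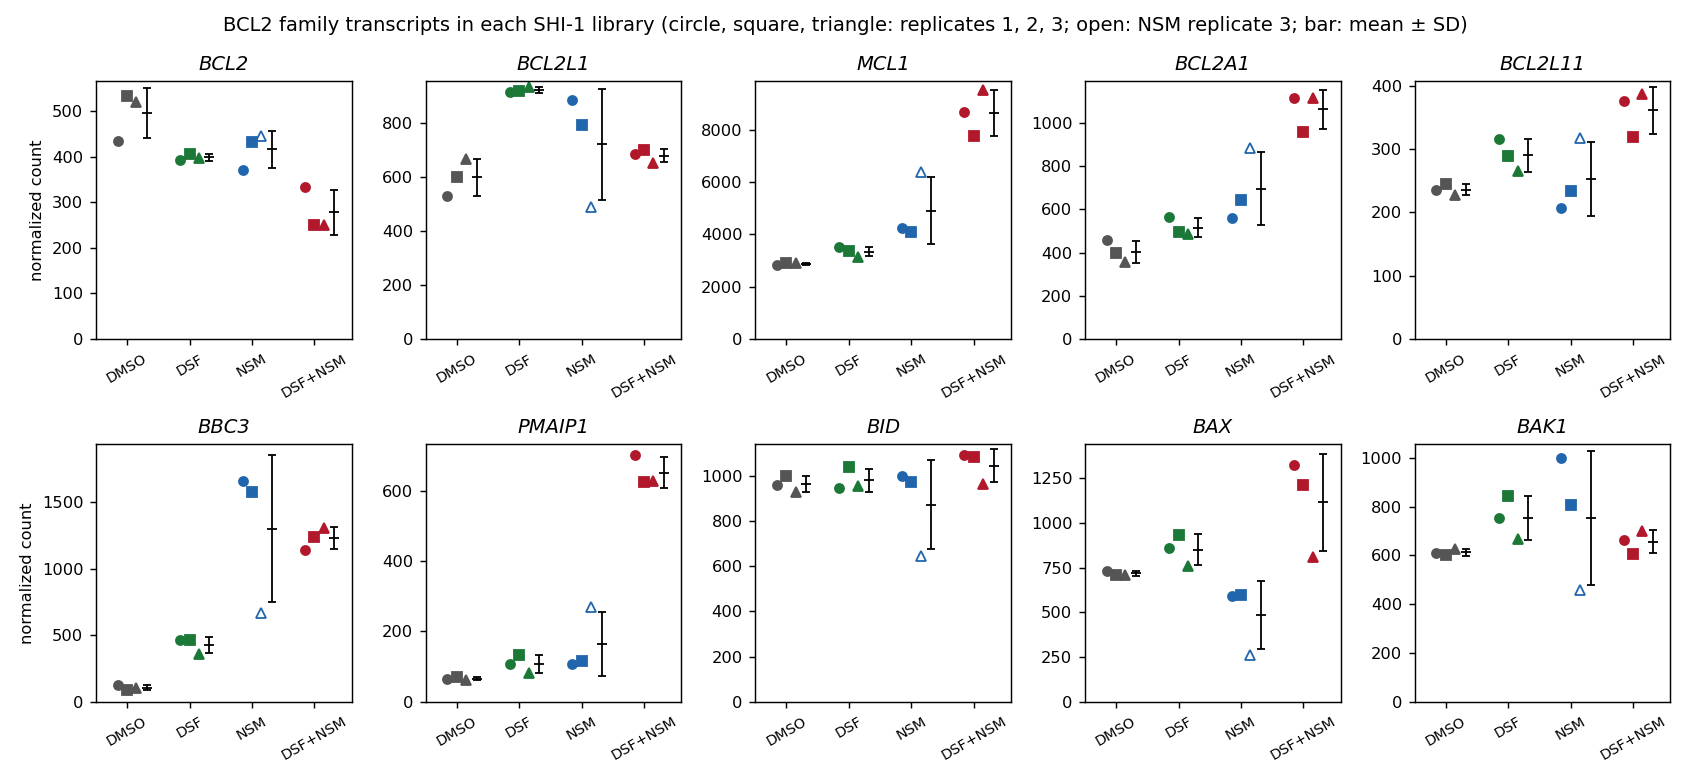
Normalized count (vertical axis, linear, from 0) of the 10 genes in each of the 12 libraries, by group (horizontal axis); symbols mark replicates 1, 2 and 3, the open symbol is NSM replicate 3 and the bar is the mean ± SD (n = 3). PMAIP1 is between 625 and 702 in the DSF+NSM libraries and at most 268 in all others, whereas BBC3 is already between 665 and 1656 in the NSM libraries.

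The PMAIP1 product NOXA is a BH3-only protein that binds MCL1 above all and promotes its degradation. Its gene lies on chromosome 18 (GRCh38, 59899996 to 59904305) and shares no exon base with another annotated gene. PMAIP1 had normalized counts of 66.3, 69.5 and 61.8 in DMSO, 108, 133 and 80.7 in DSF, 107, 117 and 268 in NSM and 702, 625 and 628 in DSF+NSM replicates 1, 2 and 3. All 3 treated groups lay above DMSO without overlap, and the DSF+NSM libraries lay above all others. Among NSM libraries only replicate 3 exceeded every DSF library. In limma, on the log2(normalized count + 1) scale used for all tests below, PMAIP1 rose by 3.29 (standard error 0.30, adjusted p = 2.58e-06) in DSF+NSM against DMSO and by 1.18 (adjusted p = 0.00628) in NSM. Without NSM replicate 3 the NSM change was 0.76 (adjusted p = 0.00284). The DSF change was 0.67 (adjusted p = 0.145), which passed once NSM replicate 3 was left out of the shared spread (adjusted p = 0.00561). DSF+NSM exceeded DSF by 2.62 (adjusted p = 3.43e-05) and NSM by 2.11 (adjusted p = 0.000197).

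BBC3 encodes PUMA, a BH3-only protein that can engage all the anti-apoptotic members. The gene lies on chromosome 19 (47220824 to 47232860), and the microRNA genes MIR3190 and MIR3191 overlap its exons by 80 and 76 bases. BBC3 had normalized counts of 127, 89.4 and 102 in DMSO, 461, 464 and 359 in DSF, 1656, 1574 and 665 in NSM and 1140, 1235 and 1308 in DSF+NSM replicates 1, 2 and 3. The DMSO, DSF and NSM groups did not overlap, while the DSF+NSM libraries lay between NSM replicate 3 and NSM replicates 1 and 2. BBC3 rose by 2.01 (standard error 0.29, adjusted p = 0.000698) in DSF, by 3.50 (adjusted p = 2.06e-06; 3.93 without replicate 3) in NSM and by 3.53 (adjusted p = 1.05e-06) in DSF+NSM. DSF+NSM exceeded DSF by 1.53 (adjusted p = 0.00117). Against NSM the difference was 0.03 (95% interval −0.60 to 0.66, adjusted p = 0.946). Without NSM replicate 3 it turned to −0.40 (adjusted p = 0.0412), with a mean of 1615 in the remaining NSM libraries against 1228 ± 83.9 (SD, n = 3) in DSF+NSM.

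BCL2L11 and BID moved far less. BCL2L11 encodes BIM, which binds all anti-apoptotic members and activates BAX and BAK directly. Its normalized counts were 236, 245 and 227 in DMSO, 316, 289 and 265 in DSF, 207, 233 and 317 in NSM and 376, 319 and 387 in DSF+NSM replicates 1, 2 and 3. Each DSF+NSM library lay above every other library. BCL2L11 rose by 0.61 in DSF+NSM against DMSO (standard error 0.17, adjusted p = 0.0107), but with all libraries scaled to equal sums this became −0.18 (adjusted p = 0.408). It exceeded NSM by 0.53 (adjusted p = 0.0291), a call that was lost when NSM replicate 1 or 2 or DSF+NSM replicate 1 or 3 was left out (adjusted p = 0.0699 to 0.0902), with equal sums (0.02) and with only these groups in the fit (adjusted p = 0.157). Without NSM replicate 3 the difference of DSF+NSM from NSM was 0.71 (adjusted p = 0.000576). In NSM against DMSO the change of BCL2L11 was 0.07 (adjusted p = 0.743), or −0.10 without replicate 3 (adjusted p = 0.544). On chromosome 2 (111120914 to 111168445) the exons of BCL2L11 share 727 bases with the antisense gene MIR4435-2HG. The supplementary methods name the Illumina TruSeq RNA kit, version 2, and describe no step that keeps the strand. Reads of the antisense gene may therefore be counted in this stretch. BID, which caspase-8 cleaves to carry the death receptor signal to mitochondria, had 927 to 997 in DMSO, 946 to 1037 in DSF, 645 to 996 in NSM and 961 to 1090 in DSF+NSM libraries. These ranges overlapped throughout, and the change of BID in DSF+NSM was 0.12 (95% interval −0.23 to 0.46, adjusted p = 0.560), with equal sums −0.67 (adjusted p = 0.00276).

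Among the anti-apoptotic genes, MCL1 and BCL2A1 rose in NSM and further in DSF+NSM cells, and BCL2 fell in DSF+NSM cells. MCL1 encodes a short-lived guardian that holds BIM, NOXA and BAK. It had normalized counts of 2833, 2907 and 2897 in DMSO, 3523, 3348 and 3155 in DSF, 4256, 4078 and 6399 in NSM and 8673, 7761 and 9511 in DSF+NSM replicates 1, 2 and 3. The 4 groups did not overlap and followed the order DMSO, DSF, NSM, DSF+NSM. MCL1 was 3.00-fold higher on the group means in DSF+NSM than in DMSO cells, a log2 fold change of 1.58 (standard error 0.16, adjusted p = 4.90e-06). The change was 0.74 in NSM (adjusted p = 0.00195), 0.53 without NSM replicate 3 (adjusted p = 0.000174), and 0.21 in DSF (adjusted p = 0.373, or 0.00972 with only DSF and DMSO in the fit). DSF+NSM exceeded DSF by 1.37 (adjusted p = 3.34e-05) and NSM by 0.84 (adjusted p = 0.00125), the latter becoming 0.33 with equal sums (adjusted p = 0.107). The MCL1 gene, on chromosome 1 (150574558 to 150579610), shares 328 exon bases with ADAMTSL4-AS1 on the same strand. Counts per gene do not separate the long MCL1 transcript from the short one, whose product is pro-apoptotic.

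BCL2A1 encodes BFL-1, an NF-κB-responsive guardian of blood cells. Its normalized counts were 457, 397 and 359 in DMSO, 565, 494 and 488 in DSF, 559, 646 and 886 in NSM and 1117, 959 and 1115 in DSF+NSM replicates 1, 2 and 3. All treated libraries lay above all DMSO libraries, and the DSF+NSM libraries above all others. BCL2A1 rose by 1.40 in DSF+NSM (standard error 0.17, adjusted p = 3.12e-05) and by 0.76 in NSM (adjusted p = 0.00316), or 0.58 without NSM replicate 3 (adjusted p = 0.00128). In DSF cells the change was 0.36 (adjusted p = 0.179), which passed without NSM replicate 3 (adjusted p = 0.0232). DSF+NSM exceeded DSF by 1.04 (adjusted p = 0.000493) and NSM by 0.63 (adjusted p = 0.0128), and with equal sums these became 0.36 (adjusted p = 0.112) and 0.12 (adjusted p = 0.607). The call against NSM was also lost with only DSF+NSM and NSM in the fit (adjusted p = 0.0850). Without NSM replicate 3 that difference was 0.82 (adjusted p = 0.000104). The BCL2A1 gene lies on chromosome 15 (79960892 to 79971196) with no exon overlap.

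BCL2, the guardian targeted by venetoclax, was the only member that fell against DMSO in the fit of all 12 libraries under the authors' scaling. Other settings also called falls, of BAX in NSM with several of them and of BID, BAX, BAK1 and BCL2L1 in at least 1 comparison with equal sums. Its normalized counts were 434, 533 and 520 in DMSO, 392, 406 and 396 in DSF, 370, 433 and 445 in NSM and 334, 249 and 250 in DSF+NSM replicates 1, 2 and 3. Every DSF+NSM library lay below every other library, and the DSF libraries also lay below DMSO without overlap. BCL2 fell by 0.84 on the log2 scale in DSF+NSM against DMSO (standard error 0.16, adjusted p = 0.000717), and with equal sums the change was −1.62. The change of −0.31 in DSF (adjusted p = 0.197) was called with only DSF and DMSO in the fit (adjusted p = 0.0114). The change of −0.25 in NSM (adjusted p = 0.207) became −0.52 with equal sums and was called there (adjusted p = 0.0139). DSF+NSM was lower than DSF by a log2 difference of −0.53 (adjusted p = 0.0161) and lower than NSM by −0.59 (adjusted p = 0.0109). The call against DSF was lost without DSF replicate 2 (adjusted p = 0.0519), DSF+NSM replicate 2 (0.0655) or DSF+NSM replicate 3 (0.0502), and that against NSM when only these groups entered the fit (adjusted p = 0.1002). The gene lies on chromosome 18 (63123346 to 63320090).

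BCL2L1, whose long transcript encodes BCL-xL and whose short transcript encodes a pro-apoptotic form that counts per gene do not separate, followed another order. It had normalized counts of 531, 602 and 667 in DMSO, 917, 918 and 934 in DSF, 885, 792 and 490 in NSM and 686, 699 and 654 in DSF+NSM replicates 1, 2 and 3. The DSF libraries lay above all others, while NSM replicate 3 lay below every DMSO library. BCL2L1 rose by 0.63 in DSF (standard error 0.19, adjusted p = 0.0397). This call did not hold without any of the DMSO or DSF libraries or without DSF+NSM replicate 1 or 2 (adjusted p = 0.0568 to 0.146), nor with equal sums (adjusted p = 0.0762). The change was 0.23 in NSM (adjusted p = 0.341), 0.49 without replicate 3 (adjusted p = 0.00136), and 0.19 in DSF+NSM (adjusted p = 0.437), which equal sums turned to −0.60 (adjusted p = 0.0155). The exons of BCL2L1 on chromosome 20 (31664452 to 31723963) share 1735 bases with the antisense gene ABALON, whose reads may also be counted there.

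In the fit of all 12 libraries under the authors' scaling, the pore-forming effectors did not pass the test in any comparison with DMSO, and several of these results changed with the setting. BAX had normalized counts of 733, 708 and 710 in DMSO, 857, 935 and 759 in DSF, 592, 598 and 263 in NSM and 1324, 1210 and 807 in DSF+NSM replicates 1, 2 and 3. The NSM libraries lay below and the DSF and DSF+NSM libraries above those of DMSO, with replicate 3 the lowest in each treated group. The log2 changes of BAX were 0.24 in DSF (adjusted p = 0.596), −0.66 in NSM (adjusted p = 0.0677) and 0.60 in DSF+NSM (adjusted p = 0.0885). The NSM change was called with equal sums (−0.93, adjusted p = 0.0138), without NSM replicate 1 (−0.85, adjusted p = 0.0318) and without replicate 2 (−0.86, adjusted p = 0.0339), but was −0.27 without replicate 3 (adjusted p = 0.170). The DSF+NSM change was called without NSM replicate 3 (adjusted p = 0.00198), without DSF+NSM replicate 3 (0.82, adjusted p = 0.0403) and with only DSF+NSM and DMSO in the fit (adjusted p = 0.0107), but equal sums turned it to −0.18 (adjusted p = 0.573). DSF+NSM exceeded NSM by 1.26 (standard error 0.28, adjusted p = 0.00383), by 0.87 without NSM replicate 3 (adjusted p = 0.000478) and by 0.75 with equal sums (adjusted p = 0.0350). BAX lies on chromosome 19 (48954875 to 48961798).

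BAK1 had normalized counts of 600 to 626 in DMSO, 666 to 845 in DSF, 457 to 999 in NSM and 607 to 699 in DSF+NSM libraries. The DSF libraries lay above DMSO, and NSM replicate 3 at 457 lay below every other library. The change was 0.29 in DSF (adjusted p = 0.405, or 0.01004 with only DSF and DMSO in the fit), 0.23 in NSM (adjusted p = 0.429) and 0.10 in DSF+NSM (95% interval −0.40 to 0.59, adjusted p = 0.744), which equal sums turned to −0.69 (adjusted p = 0.0213). Without NSM replicate 3 the NSM change was 0.55 (adjusted p = 0.00130). Its exons on chromosome 6 (33572552 to 33580276) share 91 bases with GGNBP1 on the opposite strand.

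**Figure D2:**
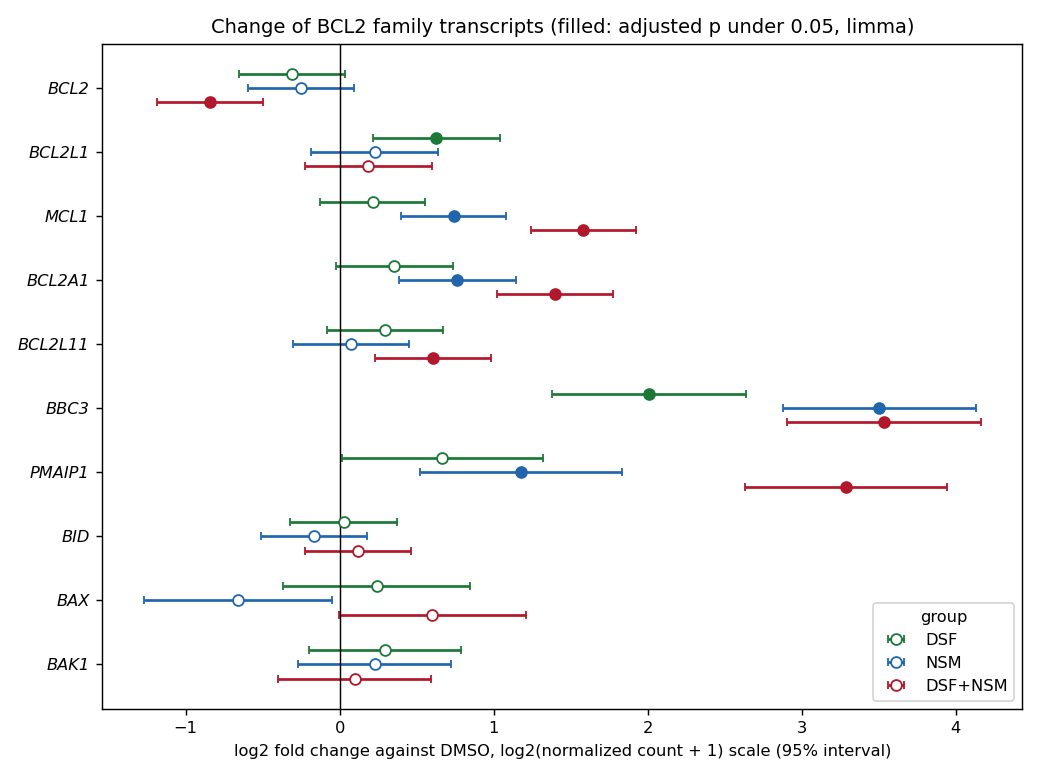
Log2 fold change against DMSO on the log2(normalized count + 1) scale (horizontal axis) of the 10 genes (vertical axis) for DSF, NSM and DSF+NSM, with 95% intervals from limma; filled points have an adjusted p under 0.05. The intervals of BBC3 exclude 0 in all 3 groups, PMAIP1 reaches 3.29 with both drugs, and BCL2 is the gene with a filled point below 0.

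Counted over the members, DSF changed 2 of 10 (BBC3 and BCL2L1, both higher), where 17.8% of all genes tested were called and 11.9% were higher. With only DSF and DMSO in the fit it was 9 of 10, where 54% of all genes were called. NSM changed 4 of 10, all higher (MCL1, BCL2A1, BBC3 and PMAIP1), where 49.1% of all genes tested were called and 25.4% of all genes tested were higher. When NSM replicate 3 was left out it was 6 of 10, with BCL2L1 and BAK1 added, against 59.8%. DSF+NSM changed 6 of 10, with MCL1, BCL2A1, BCL2L11, BBC3 and PMAIP1 higher and BCL2 lower (BCL2L11 not with equal sums), against 52.8% (28.3% higher, 24.5% lower). Compared with DSF alone, 5 of 10 differed (MCL1, BCL2A1, BBC3 and PMAIP1 higher, BCL2 lower) against 43.1% of all genes (21.7% higher, 21.4% lower). Compared with NSM alone 6 of 10 differed (MCL1, BCL2A1, BCL2L11, PMAIP1 and BAX higher, BCL2 lower) against 38.6% (20.3% higher, 18.3% lower). Leaving out NSM replicate 3 raised these to 8 and 9 of 10, and raised the shares of all genes called to 60.1% and 49%. In the fit of all 12 libraries, the shares of members called, higher and lower together, were near the background in the comparisons with DMSO. This does not cover the higher calls alone or the fit of only DSF and DMSO. The median log2 fold change of the members was 0.29 with DSF alone, 0.23 with NSM alone and 0.60 with both drugs, beside 0.05, 0.01 and 0.03 over all genes. Equal sums move the median of all genes to −0.05, −0.25 and −0.75. The libraries of 9 members did not overlap those of DMSO in DSF, of 5 in NSM and of 7 in DSF+NSM, where 60.9%, 57% and 69.3% of all genes did not. The 3 comparisons share the DMSO libraries.

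Whether the drugs together did more or less than the sum of their single changes was read from the interaction term, in which the log2 changes of DSF and of NSM are both subtracted from that of the combination. It was called for 2 of 10 members, 1 above and 1 below 0, where 26.1% of all genes were called (12.1% above and 14% below 0). PMAIP1 exceeded the sum of 1.84 by 1.44 (standard error 0.43, adjusted p = 0.0251), and BBC3 fell short of the sum of 5.51 by a difference of −1.98 (standard error 0.41, adjusted p = 0.00393). The BBC3 call held in every alternative run. That of PMAIP1 was lost with equal sums (1.03, adjusted p = 0.0781) and without DMSO replicate 1 (adjusted p = 0.0548), DMSO replicate 2 (0.0581), DSF replicate 1 (0.0502), DSF replicate 3 (0.0655), NSM replicate 1 (0.0502), NSM replicate 2 (0.0575) or DSF+NSM replicate 1 (0.0615), and was 1.86 without NSM replicate 3 (adjusted p = 3.23e-05). Equal sums also called BCL2 (−0.70, adjusted p = 0.0257) and BCL2L1 (−1.09, adjusted p = 0.00887) below 0, with the median of all genes at −0.40. Under the authors' scaling the term was 0.63 for MCL1 (adjusted p = 0.0536), 1.02 for BAX (adjusted p = 0.0761) and −0.67 for BCL2L1 (adjusted p = 0.0857). Without NSM replicate 3 these became 0.83, 0.63 and −0.93, and 7 of 10 members were called, where 45.7% of all genes were, with BCL2A1 (0.47), BAK1 (−0.75), BBC3 (−2.40) and PMAIP1 among them.

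**Figure D3:**
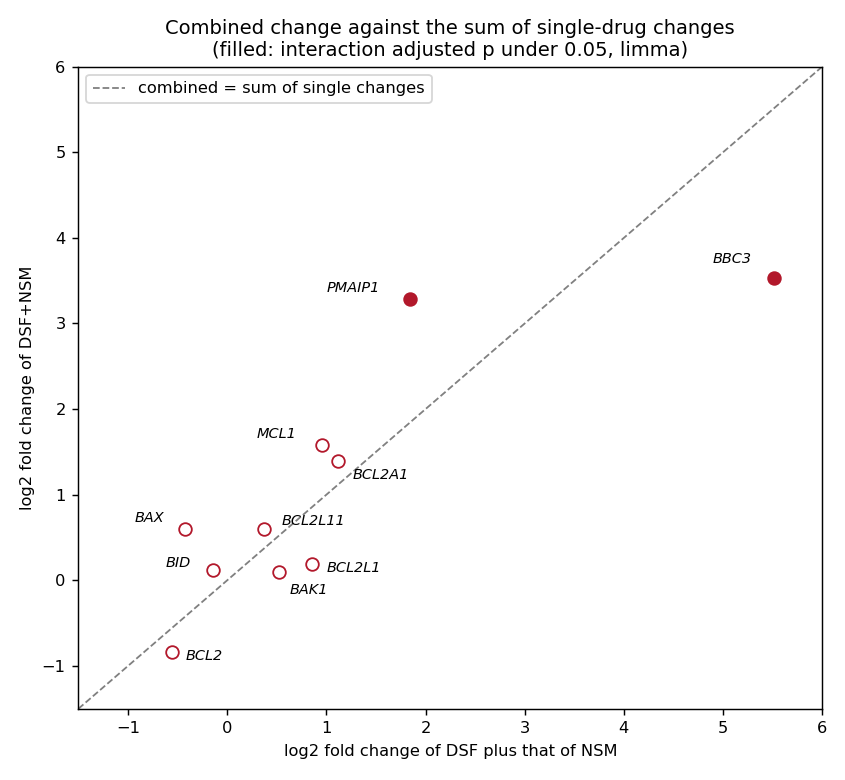
Log2 fold change of DSF+NSM against DMSO (vertical axis) against the sum of the changes of DSF and NSM (horizontal axis) for the 10 genes; the dashed line marks equality and filled points have an interaction with adjusted p under 0.05 in limma. PMAIP1 lies above the line at 3.29 against 1.84, and BBC3 below it at 3.53 against 5.51.

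Ratios between a pair of members within a library, taken here after 1 was added to each value, depend on how libraries were scaled only through that addition. They are given as a description with no test. The pairs were chosen from known binding partners, apart from MCL1 and BCL2, which are both guardians. NOXA to its partner MCL1 comes first. The log2 ratio of PMAIP1 to MCL1 was −5.40, −5.37 and −5.53 in DMSO, −5.02, −4.64 and −5.27 in DSF, −5.30, −5.11 and −4.57 in NSM and −3.63, −3.63 and −3.92 in DSF+NSM replicates 1, 2 and 3. It was therefore 1.71 higher in DSF+NSM than in DMSO libraries although MCL1 itself rose, against 0.45 in DSF and 0.44 in NSM (0.23 without NSM replicate 3). The ratio of BCL2L11 to BCL2 was above 0 only in DSF+NSM libraries, at 0.17 to 0.63, and was 1.45 higher there than in DMSO. The ratio of BBC3 to BCL2L1 went from −2.74 to −2.06 in DMSO libraries to 0.44 to 0.99 in NSM and 0.73 to 1.00 in DSF+NSM libraries. Within the guardians, MCL1 to BCL2 rose by 2.42, from 2.54 ± 0.14 (SD, n = 3) in DMSO to 4.96 ± 0.28 in DSF+NSM. The ratio of the effector BAX to BCL2 was 1.44 higher in DSF+NSM than in DMSO, and in NSM it was −0.76 in replicate 3 against 0.68 and 0.46 in replicates 1 and 2.

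**Figure D4:**
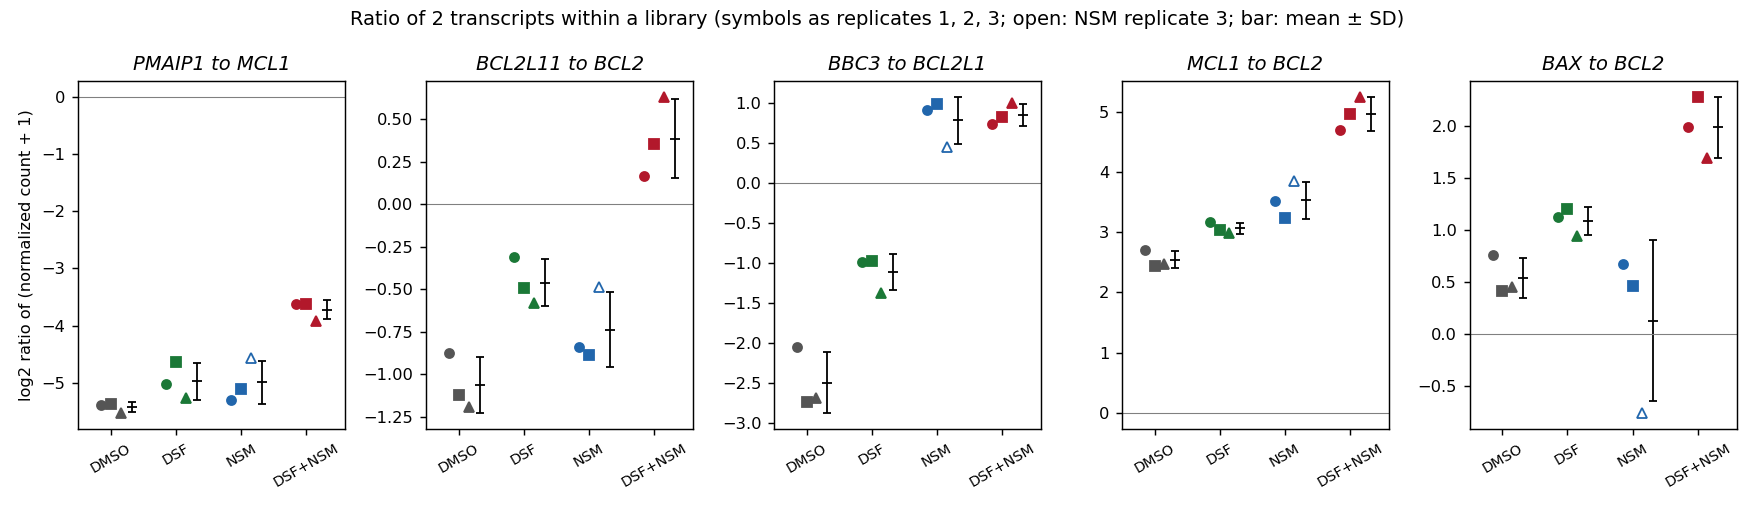
Log2 ratio of normalized counts, each with 1 added (vertical axis, a scale of its own in each panel) for 5 pairs of members within each library, by group (horizontal axis); symbols mark replicates, the open symbol is NSM replicate 3 and the bar is the mean ± SD (n = 3). All 3 DSF+NSM libraries lie above all DMSO libraries in each panel, and the PMAIP1 to MCL1 ratio is at least −3.92 there against at most −4.57 elsewhere.

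Levels of different genes can be compared per length, here as the normalized count per kb of the canonical transcript. In DMSO cells BAX had the highest level, 902 ± 17.4 (SD, n = 3), followed by MCL1 (729 ± 10.2), BCL2A1 (518 ± 63.6), BID (442 ± 15.9), BAK1 (282 ± 6.13), BCL2L1 (233 ± 26.5), BCL2 (72.0 ± 7.85), BBC3 (57.4 ± 10.3), BCL2L11 (46.3 ± 1.70) and PMAIP1 (34.7 ± 2.05). Among neighbours in this order, the ranges of the libraries overlapped only for BCL2 and BBC3. In DSF+NSM cells the order began with MCL1 (2189 ± 222), BAX (1401 ± 342) and BCL2A1 (1364 ± 116), of which BAX and BCL2A1 overlapped, followed by BBC3 (665 ± 45.5), BID (480 ± 33.4) and PMAIP1 (343 ± 22.9). BCL2 was last, at 40.4 ± 7.13. The canonical transcripts of BAX and BCL2A1 are 795 and 780 bases and that of BCL2 is 6881 bases, so these levels depend on the transcript assumed.

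Of 13 other BCL2-related genes 9 were listed and 8 tested. In DSF+NSM cells 4 of the 8 rose and none fell, with a median log2 fold change of 0.56, where 52.8% of all genes were called, 28.3% were higher and the median was 0.03. BMF, a BH3-only protein tied to the cytoskeleton, had 452 to 487 in DMSO, 980 to 1157 in DSF, 1617 to 2259 in NSM and 1057 to 1841 in DSF+NSM libraries. It rose by 1.23 in DSF (adjusted p = 0.00189), 2.10 in NSM (adjusted p = 6.97e-06) and 1.45 in DSF+NSM (adjusted p = 8.48e-05). BCL2L2, which encodes the guardian BCL-w, rose by 1.51 in NSM (adjusted p = 1.51e-06), by 1.24 in DSF+NSM (adjusted p = 4.02e-06) and by 0.45 in DSF (adjusted p = 0.0220), and its exons share 815 bases with the read-through gene BCL2L2-PABPN1. In DSF+NSM cells BCL2L13 rose by 0.56 (adjusted p = 0.00200) and the BH3-only gene BIK by 0.98 (adjusted p = 0.0493). The former became −0.23 with equal sums and the latter was lost there (0.21). For BAD, BCL2L12, BCL2L15 and BNIP3L no comparison with DMSO passed in the fit of all 12 libraries under the authors' scaling. Their DSF+NSM changes were 0.57, 0.55, 0.44 and 0.09, which equal sums turned to −0.21, −0.23, −0.26 and −0.69. Without NSM replicate 3, BAD passed in NSM (0.92, adjusted p = 3.34e-05) and in DSF+NSM (adjusted p = 0.000752). BCL2L12 then passed in DSF (0.47, adjusted p = 0.00174) and in DSF+NSM (adjusted p = 0.000184). BNIP3 was not tested, at 5.25 or below in every library. BCL2L10, BCL2L14, BOK and HRK were not analysed here.

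Downstream of the mitochondrion, 10 of 17 genes of the apoptosome, its caspases and the IAP proteins were called in DSF+NSM cells (4 higher, 6 lower), with 9 in NSM and 2 in DSF. These are 58.8%, 52.9% and 11.8% of the list, near the 52.8%, 49.1% and 17.8% over all genes. The 4 largest changes in DSF+NSM were of BIRC3, an NF-κB-responsive IAP, at 1.95 (adjusted p = 0.000582), the executioner caspase gene CASP6 at −1.15 (adjusted p = 0.000238), BIRC5, which encodes survivin, at −0.90 (adjusted p = 0.000190), and DIABLO, which encodes the IAP antagonist SMAC, at 0.89 (adjusted p = 7.43e-05). The DIABLO call was lost with equal sums (0.11, adjusted p = 0.411). Of 11 genes of the death receptor route tested, 5 were called in DSF+NSM (1 higher, 4 lower), 3 in NSM and 1 in DSF, with a median change of 0.11 in DSF+NSM. These are 45.5%, 27.3% and 9.09% of the 11, below the 52.8%, 49.1% and 17.8% over all genes. TNFRSF10B, the TRAIL receptor DR5, rose by 2.27 in DSF (adjusted p = 2.45e-05), 3.49 in NSM (adjusted p = 2.77e-07) and 3.38 in DSF+NSM (adjusted p = 1.28e-07). TNFSF10, which encodes TRAIL, fell by 1.60 in DSF+NSM (adjusted p = 0.000191), RIPK1 fell by 1.09 (adjusted p = 0.000137) and CASP8, the initiator caspase that cleaves BID, fell by 0.80 (adjusted p = 0.00244).

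Of 16 genes for transcription factors, ubiquitin ligases and other proteins known to act on BCL2 family genes or proteins, 9 were called in DSF+NSM (5 higher, 4 lower), with 12 in NSM and 5 in DSF. These are 56.25%, 75% and 31.25% of the list, beside 52.8%, 49.1% and 17.8% over all genes. The median change of the 16 genes in DSF+NSM was 0.05. ATF3, a stress-responsive bZIP factor, had 43.2 to 51.4 in DMSO, 233 to 407 in DSF, 239 to 422 in NSM and 2627 to 2839 in DSF+NSM libraries, a rise of 5.85 in DSF+NSM (adjusted p = 2.78e-09). DDIT3, which encodes CHOP, rose by 3.14 in DSF (adjusted p = 1.27e-06), 4.85 in NSM (adjusted p = 2.10e-08) and 4.99 in DSF+NSM (adjusted p = 2.78e-09). TRIB3, a pseudokinase gene induced by ATF4 and CHOP, rose by 2.29, 3.73 and 3.65 (adjusted p = 0.000153, 8.08e-07 and 4.58e-07). MYC fell by 1.46 in NSM (adjusted p = 0.000185), and it fell by 4.17 in DSF+NSM (adjusted p = 3.23e-08), from 6648 to 7246 in DMSO to 261 to 588 in DSF+NSM libraries.

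For each member called in a comparison with DMSO, the genes with the most similar values were sought among 10795 expressed genes by Pearson's r over the 12 libraries, which fall into 4 groups and share their scaling. BBC3 was followed most closely by TRIB3 (r = 0.995) and STX1A (0.994), and PMAIP1 by WDR47 (0.993) and GZF1 (0.988). MCL1 was most like CWF19L2 (0.983) and PNPLA8 (0.982), and BCL2A1 like PELI1 (0.981) and CWF19L2 (0.976). For BCL2L1 the closest were IDH2 (0.971) and VPS39 (0.948), for BCL2 NFIX (0.946) and TRIM59 (0.944), and for BCL2L11 CREB5 (0.940) and ATF7IP (0.939). In CWF19L2, PNPLA8, PELI1, WDR47 and GZF1, as in PMAIP1 and MCL1, NSM replicate 3 was the highest of the NSM libraries, whereas in TRIB3 and STX1A, as in BBC3, it was the lowest.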

How the data were processed

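RNA from 12 SHI-1 cultures was sequenced. The labels name Trimmomatic, Bowtie2 and featureCounts among the tools, whereas the supplementary methods name STAR and Salmon in nf-core/rnaseq. For each library the authors deposited 1 table, in which the signal of a gene is its normalized count, scaled by the authors with DESeq2 over the 24 libraries that the header names. Of the nonzero values, 32.2% to 32.9% were whole multiples of the smallest step of their library (tolerance 0.01 step). Reads could therefore not be recovered, and a count model was not used. The depth is the sum divided by that step.

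A pseudocount of 1 was added before taking log2, and genes reaching 10 in 3 or more libraries were tested. The test was limma-trend with robust moderation (limma 3.58.1, R 4.3.3), fitted to all 12 libraries without a block for the replicate number. Adjustment was by Benjamini-Hochberg over all 13502 genes, with calls at 0.05. Fold changes on this scale understate those of low genes. The limma step was tested on simulated data. Replicates are separate experiments by the labels, and no pair of libraries was identical.

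Members and lists were chosen with earlier results of these data known. Named are all members, the other BCL2-related genes, the 4 called genes with the largest change in DSF+NSM and a mean of at least 50 in each further list, and the 2 genes most like each called member. Alternatives were other scalings (median of ratios, trimmed mean, equal sums with and without the 4 rRNA genes listed), pseudocounts, filters, only the groups compared, library weights, a block for the replicate number, and the omission of each library in turn. Gene positions came from RefSeq (GRCh38.p14) and transcripts from GENCODE 44, and 9 of 10 members had a promoter entry. Figures were drawn with matplotlib 3.10.9.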

Additional observations from a re-analysis of the deposited data

Results flagged for a closer look

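The interaction term compares the change that DSF brought in the presence of NSM with its change in DMSO. In limma it was called for 13 of the 30 genes named by rule. The genes named from the further lists were picked for large changes in DSF+NSM, which enter this term. The 13 can therefore not be set against the 26.1% of all genes tested that were called. Among the members it was −1.98 for BBC3 (adjusted p = 0.00393), which was 461, 464 and 359 in DSF, 1656, 1574 and 665 in NSM and 1140, 1235 and 1308 in DSF+NSM replicates 1, 2 and 3. For PMAIP1 it was 1.44 (adjusted p = 0.0251), the one positive value among the 13. Of the other BCL2-related genes, BMF had −1.87 (adjusted p = 0.000715) and BCL2L2 −0.73 (adjusted p = 0.00776). BIRC3 had −1.91 (adjusted p = 0.0144) and BIRC5 −0.69 (adjusted p = 0.0230). In the death receptor route the values were −2.38 for TNFRSF10B (adjusted p = 0.000218), −1.51 for TNFSF10 (adjusted p = 0.00833), −1.21 for RIPK1 (adjusted p = 0.00252) and −0.84 for CASP8 (adjusted p = 0.0276). Among the regulators they were −3.00 for DDIT3 (adjusted p = 4.39e-05), −2.19 for MYC (adjusted p = 0.000440) and −2.36 for TRIB3 (adjusted p = 0.000911). Negative values arose in different ways. BBC3, BMF, BCL2L2, BIRC3, TNFRSF10B, DDIT3 and TRIB3 rose with each drug alone and with both drugs by less than the sum, whereas BIRC5, TNFSF10, RIPK1 and CASP8 were called in DSF+NSM alone among the comparisons with DMSO.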

How the results depend on the processing

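Of the 60 results for members, 25 were called, and 16 of these kept direction and call in every alternative run. The number of members called rose or fell by more than 1.5 times in these cases. Equal sums, with or without rRNA genes, gave 1 and 1 for DSF against DMSO and 7 and 7 for NSM, and equal sums without rRNA genes gave 3 for DSF+NSM against NSM. Fitting only the groups compared gave 9 for DSF and 3 for DSF+NSM against NSM. Library weights, whose fit had not fully converged, gave 9 for DSF, 8 for NSM, 8 for DSF+NSM against DSF, 10 against NSM and 7 for the interaction. The share of all genes called was not counted with equal sums, library weights or the replicate block. With only the groups compared it was counted for DSF against DMSO alone. With 1 library left out it was counted only without NSM replicate 3, and there not for DSF or DSF+NSM against DMSO. Counts without such a share therefore have no background to be read against. Leaving out 1 library at a time gave 1 to 5 for DSF, 4 to 6 for NSM, 6 to 7 for DSF+NSM, 4 to 8 and 5 to 9 for DSF+NSM against DSF and NSM, and 1 to 7 for the interaction, with the upper ends reached without NSM replicate 3. Some results changed sign with equal sums and were called with equal sums or in the main fit under the authors' scaling. Their values with equal sums are given with and then without rRNA genes. In DSF+NSM against DMSO they were −0.60 and −0.52 for BCL2L1, −0.18 and −0.10 for BCL2L11, −0.67 and −0.59 for BID and −0.69 and −0.61 for BAK1. For BCL2L13 they were −0.23 and −0.15 there, and for BNIP3L −0.69 and −0.61. Against DSF they were −0.59 and −0.55 for BID. A further 12 results for members changed sign with equal sums and were called under neither scaling, among them BAX and BCL2L11 against DSF. Without NSM replicate 3 these were called under the authors' scaling (adjusted p = 0.0440 and 0.0374). So was BAX in DSF+NSM against DMSO (adjusted p = 0.00198), which equal sums turned to −0.18. The log2 difference of BBC3 between DSF+NSM and NSM was −0.40 with library weights and between −0.40 (without NSM replicate 3) and 0.26 (without NSM replicate 1) when 1 library was left out, and TNFSF10 in NSM was −0.36 with library weights. The causes were not tested, apart from the shift of the median of all genes by equal sums.

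Same-numbered libraries correlated at −0.06 to 0.28 (median 0.06) in their deviations from group means. Libraries of different numbers correlated at −0.23 to 0.24 (median −0.03). Of 12 libraries, 6 correlated best with one of their own number. Some pairing by number is thus possible. The main fit did not take the numbers as pairs, and results with a replicate block are given beside it. With the replicate block 4 members had an interaction in place of 2, with MCL1 (adjusted p = 0.0493) and BAX (0.0280) added, and BAX was also called against DMSO in NSM (−0.66, adjusted p = 0.0234) and DSF+NSM (0.60, adjusted p = 0.0327). The block changed no other call of a member. With 3 libraries a group and 63 to 405 reads behind PMAIP1, small changes of low members were not resolved.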
